A study of Homo sapiens with 12 samples.

Results

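MDA-MB-231 cells, an established line of triple-negative breast cancer with mesenchymal features, were treated with the bromodomain inhibitor JQ1 and compared with cells given vehicle. The 3 arrays of MDA-MB-231 JQ1 (500 nM in culture for 72 hours) were set against the 3 arrays of MDA-MB-231 vehicle (0.1% DMSO), which are 6 of the 12 arrays of the study. The other 6 arrays hold the same treatments of HCC70, a triple-negative line with epithelial features, 3 under JQ1 and 3 under vehicle. They serve here for the marker check and the difference between the lines. They also enter the choice of the brightest cluster and the estimate of spread behind every p-value. Total RNA was read on an Affymetrix Human Gene 2.0 ST array, whose 53617 transcript clusters were reduced to 14884 genes with 1 symbol each, taking the brightest cluster of a gene. Levels are log2 values and a change is the JQ1 mean minus the vehicle mean, so that a change of 1 is a doubling of the signal. No label states that the arrays within a group are independent cultures; their p-values cover the spread among these arrays, which may be technical, and 3 arrays a group limit the precision of each value. In RNA from a whole culture, less RNA per cell and fewer cells in a given state cannot be told apart.

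JQ1 occupies the acetyl-lysine pocket of the BET bromodomain proteins and displaces them from acetylated chromatin. BET proteins recruit the elongation machinery to promoters and enhancers, and genes that depend on large enhancers are known for losing transcription early when BET proteins are displaced. By 72 hours the RNA level of a gene also reflects changes downstream of those first targets.

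Of all genes 7000 (47.0%) differed between MDA-MB-231 vehicle and HCC70 vehicle, and the markers of the line stood as the label says. All 9 measured genes of the mesenchymal list of 15 were higher in MDA-MB-231 vehicle than in HCC70 vehicle, with the receptor kinase AXL at 12.55 and 5.70 and vimentin, VIM, at 10.42 and 7.13. All 11 measured genes of the epithelial list of 15 were lower in MDA-MB-231, with the splicing regulator ESRP1 at 4.56 and 11.08. The estrogen receptor gene ESR1 averaged 4.89 in MDA-MB-231 vehicle, and none of the 3 measured blood cell markers changed under JQ1. Of the 9 mesenchymal markers 6 fell under JQ1 (66.7%) and of the 11 epithelial markers 4 (36.4%), against 17.0% of all genes. All 9 mesenchymal and 1 epithelial marker were in the brightest quartile by vehicle level, where 35.4% of all genes fell. Summed mesenchymal levels were 84.3 to 85.3 on JQ1 arrays and 90.5 to 91.4 on vehicle arrays. Summed epithelial levels were lower under JQ1 too, at 59.6 to 63.6 against 64.4 to 66.6. The VIM cluster used, the brightest, was not called (0.15, limma adjusted p = 0.368). Other VIM clusters rose by 0.72 and 0.89 (limma adjusted p = 2.38e-05 and 0.00457).

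In MDA-MB-231 JQ1 changed the RNA level of a large share of genes, and lowered more of them than it raised on the deposited scale. In limma's moderated test, with Benjamini-Hochberg adjustment over all genes and a threshold of 0.05, 4139 of 14884 genes (27.8%) were called, of which 1607 (10.8%) rose and 2532 (17.0%) fell. On this scale falls were larger as well as more numerous: the median change was -0.59 among the falls and 0.49 among the rises, and 529 genes (3.55%) fell by at least 1 while 119 (0.800%) rose by as much. At a change of 2 or more there were 87 falls and 9 rises. The balance of directions depended on the scale. On the deposited scale 61.2% of the called genes fell, with a median change over all genes of 0.02; with each array centred on its median 2185 rose and 2091 fell (48.9%), with a median of 0.08, and after quantile normalization 2270 rose and 2148 fell (48.6%), with a median of 0.04.

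Arrays within a group correlated at 0.989 to 0.992 over genes, and JQ1 with vehicle arrays at 0.962 to 0.970. The median SD over 3 arrays was 0.136 under JQ1 and 0.139 under vehicle. Among the MDA-MB-231 arrays, weights were lowest for the JQ1 and vehicle arrays numbered 3, at 0.576 and 0.470, and without these and the third HCC70 JQ1 array 1483 genes rose and 2415 fell.

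Calls went with the level of a gene. In the brightest quartile of genes by vehicle level, 15.6% rose and 35.4% fell, and in the next 14.4% rose and 23.6% fell. In the 2 dimmer quartiles 8.92% and 4.22% rose and 7.07% and 2.02% fell, the dimmest last. Under JQ1 186 called falls ended below 4.82, the lower quartile of all JQ1 levels, where an array reads mostly background, and such changes are bounds on the size. The number of members in the brightest quartile is given beside the count of each list.

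**Figure D1:**
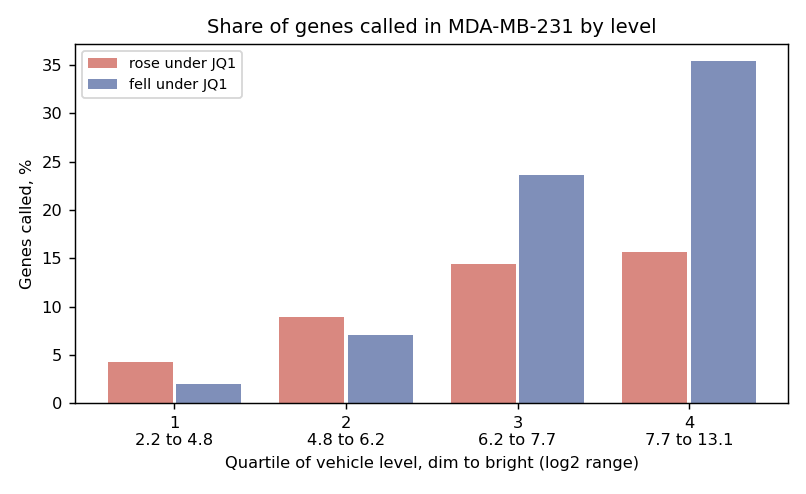
Percent of genes that rose and that fell under JQ1 in MDA-MB-231, in each quartile of the mean vehicle level (log2 range under each pair of bars), dim to bright. The share of falls is 2.02% in the dimmest quartile and 35.4% in the brightest, and that of rises 4.22% and 15.6%.

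Past the 8 genes at each end of the ranking, the genes ranked 9 to 20 by size of change were described in each direction. GPR137C, an integral membrane protein gene, measured 7.47, 7.60 and 7.54 on the JQ1 arrays, against 5.67, 5.69 and 5.16 on the vehicle arrays. The groups were far apart, with a change of 2.03 ± 0.15 (SE; limma adjusted p = 4.15e-07, n = 3 each), a 4.08-fold rise. HSPG2, which encodes the basement membrane proteoglycan perlecan, measured 11.45, 11.35 and 11.38 on the JQ1 arrays, against 9.74, 9.84 and 9.72 on the vehicle arrays. It rose by 1.63 ± 0.077 (limma adjusted p = 1.51e-08), and the groups did not overlap. AHNAK2, a giant scaffold protein gene, measured 8.70, 8.64 and 8.96 on the JQ1 arrays, against 6.97, 6.96 and 6.92 on the vehicle arrays, a rise of 1.82 ± 0.098 with no overlap of the groups.

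SUSD2, a cell surface sushi domain protein gene, measured 9.37, 9.38 and 9.28 on the JQ1 arrays, against 7.74, 7.62 and 7.41 on the vehicle arrays. All JQ1 arrays were higher, and the change was 1.76 ± 0.12 (limma adjusted p = 2.94e-07). DPP4, a membrane peptidase that trims peptide hormones and chemokines, measured 7.25, 7.17 and 6.88 on the JQ1 arrays, against 5.44, 5.47 and 5.72 on the vehicle arrays. It rose by 1.56 ± 0.11 with the groups well apart. MAOB, the mitochondrial monoamine oxidase B, measured 6.51, 6.10 and 6.05 on the JQ1 arrays, against 4.95, 4.23 and 4.18 on the vehicle arrays, and its vehicle level lay below the lower quartile, so its rise of 1.77 ± 0.20 is a bound. The remaining rises among ranks 9 to 20 were IFITM10 (1.73), the microRNA gene MIR581 (1.75, a bound since its vehicle level lay below the lower quartile), GRAMD2A (1.66), LINC00842 (1.59), the lysosomal cholesterol sensor GPR155 (1.55) and the polarity gene LLGL2 (1.49).

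Among the falls, NDC80, which links kinetochores to microtubules, measured 5.99, 6.06 and 5.73 on the JQ1 arrays, against 8.69, 8.77 and 8.86 on the vehicle arrays. All vehicle arrays were higher and the change was -2.85 ± 0.12 (limma adjusted p = 7.73e-09), a 7.2-fold fall. KIF14, a mitotic kinesin needed for cytokinesis, measured 6.52, 6.36 and 6.31 on the JQ1 arrays, against 9.21, 9.06 and 8.93 on the vehicle arrays, a fall with a change of -2.67 ± 0.10. SGO1, which protects centromeric cohesion, measured 6.18, 6.42 and 6.14 on the JQ1 arrays, against 8.88, 8.90 and 8.93 on the vehicle arrays. Its change was -2.65 ± 0.11, with the vehicle arrays close together. Other genes of division at these ranks were KIF20A (-2.56), SPAG5 (-2.55), ARHGAP11A (-2.54) and the scaffold gene IQGAP3 (-2.61).

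Falls at these ranks that are not mitotic included EREG, which encodes the EGF receptor ligand epiregulin and measured 6.88, 6.81 and 6.19 on the JQ1 arrays, against 9.47, 9.29 and 9.12 on the vehicle arrays. The groups lay over 2 log2 units apart, with a change of -2.66 ± 0.16 (limma adjusted p = 9.25e-08). HAS2, the main hyaluronan synthase, measured 4.14, 4.43 and 4.24 on the JQ1 arrays, against 6.75, 6.97 and 6.70 on the vehicle arrays. Under JQ1 it read below the lower quartile on all 3 arrays, so its change of -2.54 ± 0.14 is a bound. PDE8B, a phosphodiesterase that breaks down cyclic AMP, measured 5.39, 4.88 and 5.38 on the JQ1 arrays, against 7.95, 7.69 and 7.65 on the vehicle arrays and changed by -2.55 ± 0.15. MOCOS, the molybdenum cofactor sulfurase, changed by -2.72, and LINC03033 by -2.57. None of the 24 calls at ranks 9 to 20 was lost in any of the 16 refits that measured it. They were chosen from the same arrays for large changes and separate groups, so this count adds no support.

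**Figure D2:**
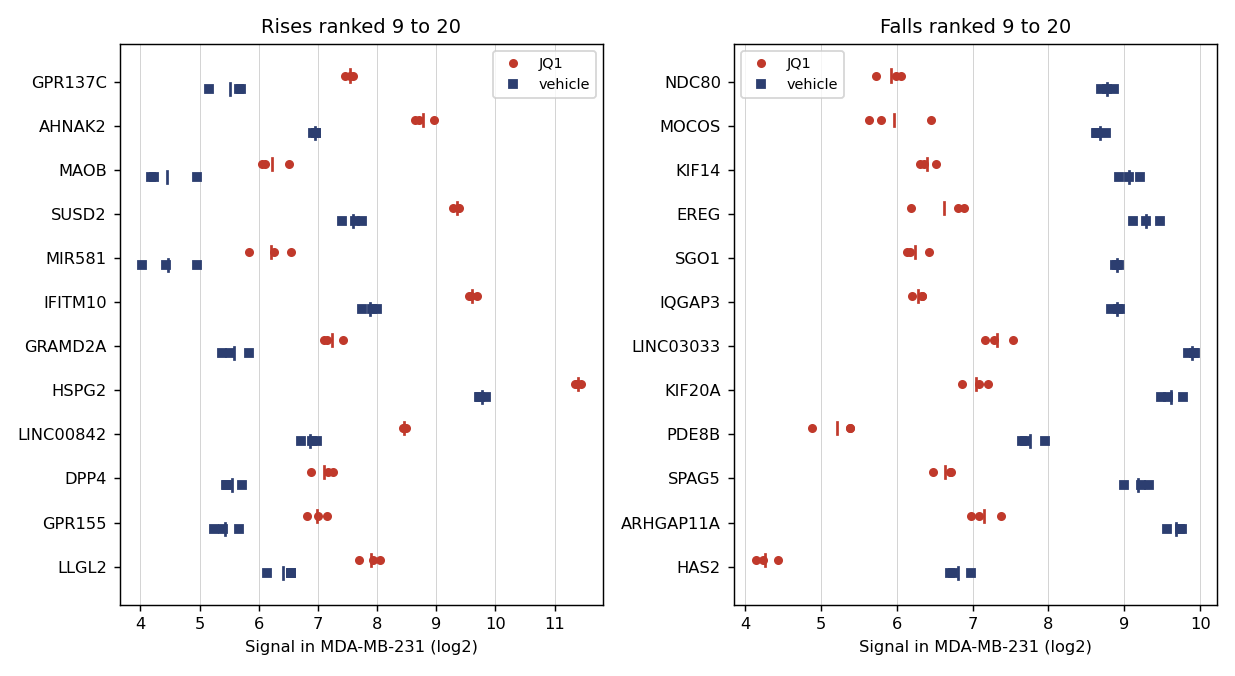
Levels (log2) of the genes ranked 9 to 20 by size of change among rises and among falls, on each of the 3 JQ1 and 3 vehicle arrays of MDA-MB-231. Only genes whose groups do not overlap were ranked. NDC80 reads 5.73 to 6.06 under JQ1 and 8.69 to 8.86 under vehicle.

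The falls among genes of division extended to the structures that chromosomes and the nuclear envelope are built from. Of 24 measured genes of centrosome and centriole assembly 14 fell (58.3%) and 2 rose (8.33%), against 17.0% and 10.8% of all genes. Their median change was -0.48, with 13 in the brightest quartile. PLK4, the kinase that starts centriole duplication, measured 6.66, 6.52 and 6.41 on the JQ1 arrays, against 8.58, 8.65 and 8.55 on the vehicle arrays. All JQ1 arrays were lower by more than 1.5 and the change was -2.06 ± 0.11 (limma adjusted p = 5.24e-08). SASS6, the cartwheel protein of new centrioles, changed by -2.04, the abscission protein gene CEP55 by -1.99, and CEP152, which recruits PLK4, by -1.75. Of 17 measured condensin and cohesin genes 11 fell (64.7%) and none rose, with a median of -0.43 and 14 in the brightest quartile. The condensin ATPase genes SMC2 and SMC4 changed by -1.43 ± 0.080 and -1.31 ± 0.080, and ESCO2, which acetylates cohesin, by -1.33 ± 0.094.

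The nuclear lamina genes divided by type of lamin. LMNB1, which encodes lamin B1, measured 7.73, 7.55 and 7.32 on the JQ1 arrays, against 10.001, 9.81 and 9.71 on the vehicle arrays. It fell with a change of -2.31 ± 0.11 (limma adjusted p = 2.08e-08), the largest of the list, and the groups did not overlap. LMNB2 fell too, at -1.29 ± 0.11. LMNA, which encodes the A-type lamins, measured 8.33, 8.13 and 8.09 on the JQ1 arrays, against 8.39, 8.42 and 8.32 on the vehicle arrays and was not called, at -0.19 ± 0.091 (limma adjusted p = 0.146). The lamin-associated gene TMPO measured 7.85, 7.73 and 7.48 on the JQ1 arrays, against 9.42, 9.39 and 9.35 on the vehicle arrays, a change of -1.70 ± 0.11, and the lamin B receptor gene LBR changed by -1.11 ± 0.095. TOR1AIP1, an inner nuclear membrane protein gene, rose by 0.42 ± 0.082. In all 8 of 13 measured members fell (61.5%) and 1 rose (7.69%), against 17.0% and 10.8% of all genes. The median was -0.39, with 11 in the brightest quartile.

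Of 46 measured genes of the nuclear pore and of nuclear transport 31 fell (67.4%) and none rose, with a median of -0.41. The brightest quartile, where 35.4% of all genes fell, held 38 of them, and over all genes 17.0% fell. NUP210, a membrane-anchored pore protein gene, measured 7.20, 7.29 and 7.18 on the JQ1 arrays, against 8.59, 8.66 and 8.43 on the vehicle arrays, and the groups were more than 1 apart. Its change was -1.34 ± 0.088 (limma adjusted p = 1.94e-07). Another transmembrane nucleoporin gene, NDC1, changed by -1.36 ± 0.094, the importin gene IPO8 by -1.54 ± 0.15, and the core scaffold gene NUP107 by -0.59 ± 0.11 (limma adjusted p = 0.00141).

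Cytosolic tRNA synthetases, which charge tRNAs with amino acids, had 15 falls (83.3%) and 1 rise (5.56%) among 18 measured genes. The median was -0.87, with 17 in the brightest quartile, and over all genes 17.0% fell and 10.8% rose. MARS1, the methionine enzyme, measured 7.16, 7.06 and 6.89 on the JQ1 arrays, against 8.70, 8.82 and 8.76 on the vehicle arrays. Every JQ1 array was at least 1.5 lower and the change was -1.72 ± 0.097 (limma adjusted p = 5.59e-08). YARS1, for tyrosine, measured 7.37, 6.99 and 7.06 on the JQ1 arrays, against 8.74, 8.79 and 8.83 on the vehicle arrays, a change of -1.65 ± 0.10. GARS1, for glycine, fell with a change of -0.91 ± 0.071, and WARS1, for tryptophan, with -1.27 ± 0.099; a second and dimmer WARS1 cluster gave -0.32 (limma adjusted p = 0.1). RARS1, for arginine, went the other way and measured 10.78, 10.76 and 10.70 on the JQ1 arrays, against 10.33, 10.32 and 10.25 on the vehicle arrays. Its groups did not overlap and it rose by 0.44 ± 0.078 (limma adjusted p = 0.00088). The other 2 were not called.

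Of 70 measured mitochondrial ribosome genes 27 fell (38.6%) and 1 rose (1.43%), against 17.0% and 10.8% of all genes, with a median of -0.25. The brightest quartile held 36 of the 70, and 35.4% of all genes in that quartile fell, a share near that of the list. After quantile normalization 17 fell. MRPL15 measured 7.37, 6.97 and 6.91 on the JQ1 arrays, against 8.24, 8.35 and 8.36 on the vehicle arrays, a change of -1.23 ± 0.15, and MRPS15 changed by -1.08 ± 0.094. MRPS12 was not called, at -0.22 ± 0.13 (limma adjusted p = 0.233). Of 33 measured cytosolic ribosomal protein genes 2 rose (6.06%) and 1 fell (3.03%), with a median of 0.00 and 24 in the brightest quartile. These small counts were not stable: 5 rose without vehicle replicate 3, and none fell without JQ1 replicate 1 or JQ1 replicate 3. RPL28 rose by 0.42 ± 0.089, and RPS6, whose protein is the classical substrate of S6 kinase, was not called, at -0.19 ± 0.078 (limma adjusted p = 0.0934). Of 44 measured splicing factors 21 fell (47.7%) and 3 rose (6.82%), with a median of -0.23 and 37 in the brightest quartile. The count of rises was 1 without JQ1 replicate 3 or vehicle replicate 1. HNRNPM changed by -1.14 ± 0.092, the core snRNP gene SNRPD1 by -0.88 ± 0.12 and the prototype SR protein gene SRSF1 by -0.38 ± 0.083, while HNRNPC rose by 0.53 ± 0.099 and HNRNPA1 stood at 0.01 ± 0.11 (limma adjusted p = 0.956).

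Genes of one-carbon metabolism fell in part. Of 14 measured genes of folate, serine and glycine metabolism 7 fell (50.0%) and none rose, against 17.0% and 10.8% of all genes. Their median was -0.22, with 5 in the brightest quartile. MTHFD1L, the mitochondrial formate-producing enzyme, measured 6.91, 6.96 and 6.60 on the JQ1 arrays, against 8.42, 8.42 and 8.35 on the vehicle arrays. The groups were well apart and the change was -1.58 ± 0.095 (limma adjusted p = 9.2e-08). The serine hydroxymethyltransferase genes SHMT2 and SHMT1 changed by -1.13 ± 0.10 and -0.69 ± 0.13. PHGDH, which starts serine synthesis, measured 5.92, 5.69 and 6.05 under JQ1 and 6.18, 5.92 and 6.04 under vehicle; these overlapped and it was not called, at -0.16 ± 0.11 (limma adjusted p = 0.301).

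Chromatin modifiers changed gene by gene. Of 31 measured histone methyltransferases 13 fell (41.9%) and 2 rose (6.45%), against 17.0% and 10.8% of all genes. Their median was -0.25, with 19 in the brightest quartile, where 35.4% of all genes fell. EZH2, the catalytic subunit of Polycomb repressive complex PRC2, measured 7.89, 8.05 and 7.91 on the JQ1 arrays, against 9.41, 9.45 and 9.38 on the vehicle arrays. All JQ1 arrays were lower and its change was -1.46 ± 0.076 (limma adjusted p = 2.86e-08). EZH1, its less active paralog in the same complex, measured 9.78, 9.83 and 9.83 on the JQ1 arrays, against 9.25, 9.28 and 9.11 on the vehicle arrays. Here all JQ1 arrays were higher, with a rise of 0.60 ± 0.083 (limma adjusted p = 0.000127), and both lay in the brightest quartile. NSD1 and NSD2, which methylate histone H3 lysine 36, changed by -1.27 ± 0.12 and -1.27 ± 0.082, and KMT2C, an enhancer methyltransferase gene, rose by 0.41 ± 0.073.

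Of 12 measured genes of DNA methylation and its removal 7 fell (58.3%) and none rose, against 17.0% and 10.8% of all genes. Their median was -0.49, with 5 in the brightest quartile. UHRF1, which brings the maintenance methyltransferase to replicated DNA, measured 6.97, 7.14 and 7.30 on the JQ1 arrays, against 8.51, 8.15 and 8.06 on the vehicle arrays. Every JQ1 array was lower, and the change was -1.10 ± 0.12 (limma adjusted p = 1.59e-05). DNMT1, that methyltransferase, changed by -0.80 ± 0.076, and the de novo enzyme gene DNMT3B by -0.32 ± 0.12, which was not called (limma adjusted p = 0.0737). Of 11 measured SWI/SNF remodelling genes 6 fell (54.5%) and none rose, 6 of the 11 being in the brightest quartile. PHF10 stood at -0.79 ± 0.12 and ARID1A at -0.53 ± 0.093.

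**Figure D3:**
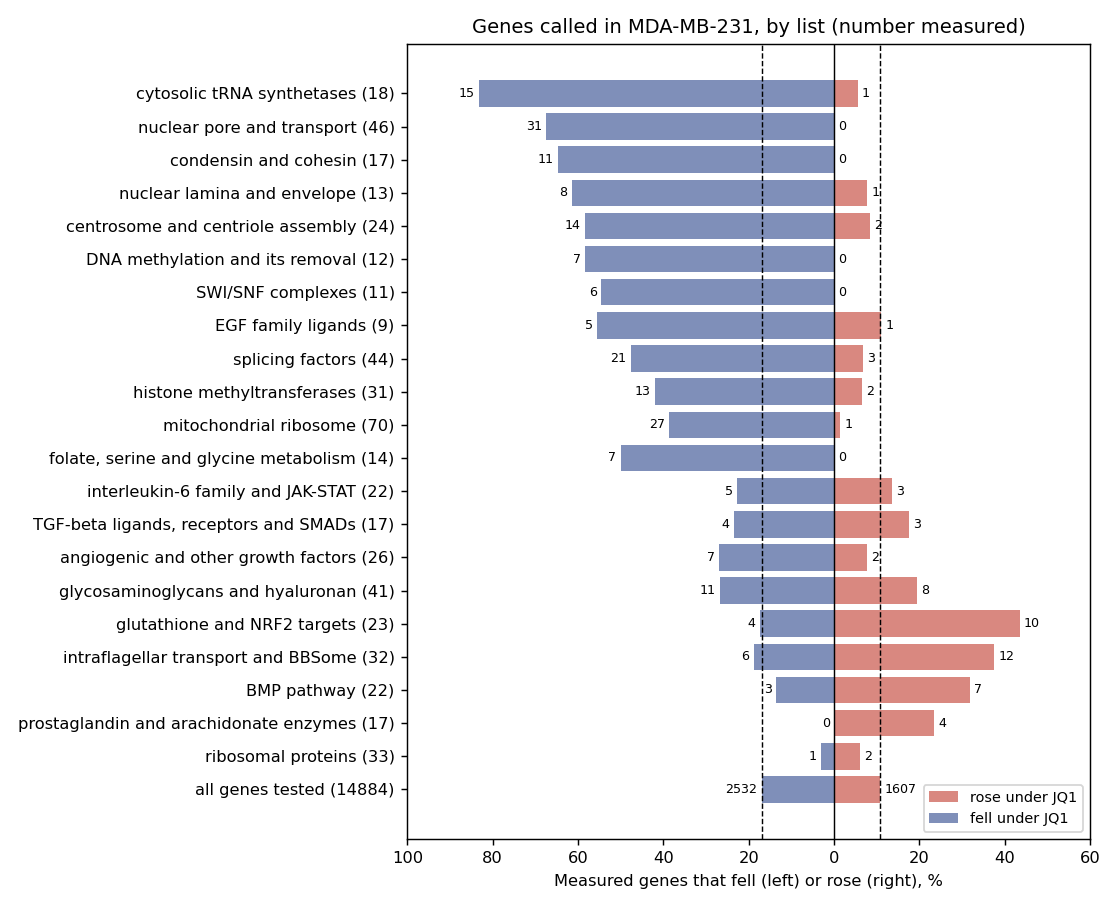
Percent of the measured genes of each list that fell (left of 0) or rose (right of 0) under JQ1 in MDA-MB-231, with the number of genes at each bar, the number measured in brackets and the shares over all genes as dashed lines (17.0% fell, 10.8% rose). tRNA synthetases have the largest share of falls among the lists drawn (15 of 18), and glutathione and NRF2 targets the largest share of rises (10 of 23).

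Secreted growth factors and cytokines held several of the largest single changes, within lists that moved less. Of 26 measured angiogenic and other growth factor genes 7 fell (26.9%) and 2 rose (7.69%), against 17.0% and 10.8% of all genes. Their median was -0.17, with 4 in the brightest quartile. VEGFA, the main angiogenic factor, measured 6.58, 6.66 and 6.92 on the JQ1 arrays, against 8.74, 8.82 and 8.93 on the vehicle arrays. The groups were about 2 apart, with a change of -2.11 ± 0.098 (limma adjusted p = 1.32e-08). ANGPT1, a ligand of the endothelial receptor TEK, measured 4.05, 3.97 and 3.75 on the JQ1 arrays, against 6.02, 6.22 and 5.89 on the vehicle arrays; under JQ1 it read below the lower quartile, so -2.12 ± 0.12 is a bound. VEGFC, the lymphatic factor, changed by -0.84 ± 0.12. FGF18 measured 6.78, 6.39 and 6.65 on the JQ1 arrays, against 5.35, 4.88 and 5.31 on the vehicle arrays and rose by 1.43 ± 0.15, and the KIT ligand gene KITLG rose by 0.95 ± 0.095. PDGFB was not called, at 0.17 ± 0.090 (limma adjusted p = 0.189).

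Of 9 measured EGF family ligands 5 fell (55.6%), EREG among them, and 1 rose (11.1%), against 17.0% and 10.8% of all genes. Their median was -0.49, with 2 in the brightest quartile. The count of falls was 2 without JQ1 replicate 2, 2 without JQ1 replicate 3, 3 without vehicle replicate 2 and 3 without the arrays numbered 3. EGF measured 4.99, 4.94 and 4.96 on the JQ1 arrays, against 5.61, 5.58 and 5.42 on the vehicle arrays, near the dim end of the range, and changed by -0.57 ± 0.10 (limma adjusted p = 0.00083). HBEGF, the heparin-binding ligand, measured 8.85, 8.92 and 8.75 on the JQ1 arrays, against 8.22, 8.32 and 8.31 on the vehicle arrays. It moved against EREG, rising by 0.56 ± 0.10 (limma adjusted p = 0.000987) with no overlap between groups.

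LIF, a cytokine of the interleukin-6 family that signals through JAK1 and STAT3, measured 5.50, 5.18 and 5.28 on the JQ1 arrays, against 7.66, 7.56 and 7.07 on the vehicle arrays. The groups lay far apart, with a change of -2.11 ± 0.16 (limma adjusted p = 5.9e-07). Of the 22 measured genes of that family and of JAK-STAT signalling 5 fell (22.7%) and 3 rose (13.6%), against 17.0% and 10.8% of all genes, with a median of 0.02 and 7 in the brightest quartile. JAK1 rose by 0.59 ± 0.079 while STAT3 and its feedback gene SOCS3 were not called, at 0.04 ± 0.079 and 0.12 ± 0.11 (limma adjusted p = 0.776 and 0.473). STAT5B changed by -0.53 ± 0.13.

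Among TGF-beta and BMP genes, an inhibitor and a storage protein fell, and intracellular inhibitors rose. FST, which encodes follistatin, an activin-binding protein, measured 6.67, 6.66 and 6.63 on the JQ1 arrays, against 9.08, 8.92 and 8.76 on the vehicle arrays. All JQ1 arrays were more than 2 lower than any vehicle array, a change of -2.27 ± 0.10 (limma adjusted p = 1.05e-08). LTBP1, which anchors latent TGF-beta in the matrix, changed by -1.36 ± 0.097. The inhibitory SMAD genes rose: SMAD6 measured 7.82, 7.85 and 7.52 on the JQ1 arrays, against 6.47, 6.63 and 5.91 on the vehicle arrays and rose by 1.40 ± 0.18 (limma adjusted p = 6.03e-05), and SMAD7 measured 6.77, 6.72 and 6.68 on the JQ1 arrays, against 6.15, 6.19 and 5.86 on the vehicle arrays and rose by 0.65 ± 0.12 (limma adjusted p = 0.000948). Neither gene's groups overlapped. The corepressor genes SKI and SKIL rose by 0.59 ± 0.098 and 0.43 ± 0.10, and the decoy receptor gene BAMBI by 0.98 ± 0.11.

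Of 17 measured TGF-beta genes 4 fell (23.5%) and 3 rose (17.6%), with a median of -0.06 and 7 in the brightest quartile. Of 22 measured BMP genes 3 fell (13.6%) and 7 rose (31.8%), with a median of 0.10 and 4 in the brightest quartile, and over all genes 17.0% fell and 10.8% rose. The effector SMAD1 changed by -0.46 ± 0.10. SMAD3 measured 7.07, 7.02 and 7.08 under JQ1 and 7.47, 7.44 and 7.22 under vehicle and changed by -0.32 ± 0.11 (limma adjusted p = 0.047). This call was lost in 11 of 16 refits, with adjusted p above the threshold without JQ1 replicate 1, 2 or 3 (0.088, 0.11 and 0.084), without vehicle replicate 1 or 2 (0.15 and 0.14), with the replicate number as a block (0.087) and in 5 others. The ligand gene BMP4, at a vehicle mean among the brightest genes, was not called (0.21 ± 0.099, limma adjusted p = 0.148).

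Of the 41 measured genes of glycosaminoglycans and hyaluronan 11 fell (26.8%) and 8 rose (19.5%), against 17.0% and 10.8% of all genes. Their median was -0.01, with 14 in the brightest quartile, where 35.4% of all genes fell and 15.6% rose. Without the arrays numbered 3, 5 rose. Besides HAS2, CEMIP, a hyaluronan-degrading protein gene, measured 8.17, 8.11 and 7.92 on the JQ1 arrays, against 10.36, 10.41 and 10.31 on the vehicle arrays. The groups were more than 2 apart, with a change of -2.29 ± 0.14 (limma adjusted p = 1.32e-07). SRGN, a proteoglycan core protein of secretory granules, changed by -1.75 ± 0.17. The surface proteoglycan gene SDC4 measured 11.47, 11.56 and 11.58 on the JQ1 arrays, against 10.47, 10.48 and 10.30 on the vehicle arrays. It was high in both groups and rose by 1.12 ± 0.081, as did the chondroitin polymerase gene CHPF, at 0.94 ± 0.12. CD44, the hyaluronan receptor, changed by -0.30 ± 0.074 (limma adjusted p = 0.00811), a call lost in MDA-MB-231 arrays alone and without the arrays numbered 3 (adjusted p 0.05 and 0.052).

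TFPI, the inhibitor of coagulation initiation by tissue factor, measured 6.94, 7.04 and 6.93 on the JQ1 arrays, against 9.39, 9.36 and 9.27 on the vehicle arrays. Every JQ1 array was more than 2 lower, a change of -2.37 ± 0.096 (limma adjusted p = 5.45e-09), while its paralog TFPI2 measured 10.94, 11.10 and 11.04 on the JQ1 arrays, against 8.90, 8.87 and 8.76 on the vehicle arrays and rose by 2.18 ± 0.087. The thrombin receptor gene F2R changed by -1.05 ± 0.20 and thrombomodulin, THBD, by -0.91 ± 0.17. Of 8 measured genes of plasminogen activation and coagulation 4 fell (50.0%) and 1 rose (12.5%), against 17.0% and 10.8% of all genes. Their median was -0.45, with 5 in the brightest quartile. The 1 rise, PROS1 at 0.44 ± 0.14, was not called without JQ1 replicate 1, vehicle replicate 1 or vehicle replicate 3.

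Adhesion G protein-coupled receptor genes were among the falls. ADGRF1 measured 5.77, 5.14 and 5.51 on the JQ1 arrays, against 8.01, 7.92 and 7.78 on the vehicle arrays, a change of -2.43 ± 0.14. ADGRG6, known for its part in Schwann cell myelination, changed by -1.79 ± 0.097, and ADGRF5 by -1.57 ± 0.22. Of 90 measured genes with the symbols ADGR, GPR or GPRC, which leave out many other G protein-coupled receptors, 10 rose (11.1%) and 8 fell (8.89%), with a median of 0.02 and 14 in the brightest quartile, against 10.8% and 17.0% of all genes. The count of rises was 6 without JQ1 replicate 1, 6 without vehicle replicate 2 and 18 with the arrays centred on their medians.

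Of 23 measured glutathione and NRF2 target genes 10 rose (43.5%) and 4 fell (17.4%), against 10.8% and 17.0% of all genes. Their median was 0.12, with 14 in the brightest quartile, where 15.6% of all genes rose. The count of falls was 1 without vehicle replicate 1, and 2 without vehicle replicate 2 or either of JQ1 replicates 1 and 3. SRXN1, which reduces overoxidized peroxiredoxins, measured 9.96, 9.74 and 9.69 on the JQ1 arrays, against 8.41, 8.41 and 8.29 on the vehicle arrays. All JQ1 arrays were higher, with a rise of 1.42 ± 0.10 (limma adjusted p = 3.85e-07). GSTM3 measured 8.19, 8.16 and 8.17 on the JQ1 arrays, against 6.79, 6.82 and 6.93 on the vehicle arrays and rose by 1.32 ± 0.091. The reductase genes GSR and TXNRD1 rose by 0.85 ± 0.085 and 0.53 ± 0.074. HMOX1, heme oxygenase, changed by -0.42 ± 0.12 (limma adjusted p = 0.0163). This call was lost in 6 of 16 refits, without JQ1 replicate 1 or 3 (0.07 and 0.056), without vehicle replicate 1 (0.057), without the arrays numbered 3 (0.12) and in 2 others.

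Of 32 measured genes of the primary cilium, from intraflagellar transport, the BBSome and the transition zone, 12 rose (37.5%) and 6 fell (18.8%). Over all genes 10.8% rose and 17.0% fell. The median of the list was 0.18, with 10 in the brightest quartile. WDR19 measured 8.80, 8.84 and 8.65 on the JQ1 arrays, against 8.11, 8.04 and 7.84 on the vehicle arrays, a rise of 0.77 ± 0.11, and the groups did not overlap. BBS1 rose by 0.72 ± 0.12, BBS4 by 0.61 ± 0.11 and IFT88 by 0.64 ± 0.12, while IFT74 changed by -0.78 ± 0.098 and the transition zone genes CC2D2A and TMEM67 by -0.95 ± 0.10 and -0.77 ± 0.15. Of 17 measured prostaglandin and arachidonate genes 4 rose (23.5%) and none fell, with 4 in the brightest quartile, and 1 fell without vehicle replicate 3. The constitutive cyclooxygenase gene PTGS1 measured 8.03, 7.81 and 7.88 on the JQ1 arrays, against 6.98, 6.92 and 6.74 on the vehicle arrays and rose by 1.03 ± 0.096. The inducible gene PTGS2 read below the lower quartile in both groups and was not called, at 0.04 ± 0.19 (limma adjusted p = 0.909).

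MicroRNA genes on this array are read by probes to the precursor region in total RNA, and a change there is not a measure of the mature microRNA. Of 1072 measured microRNA genes 67 (6.25%) rose and 37 (3.45%) fell, shares below those of all genes, 624 having vehicle levels below the lower quartile and 49 lying in the brightest quartile. Both counts depended on the processing, over the settings with no minimum change and no level filter. The rises ranged over 41 to 100, the most with the arrays centred. The falls ranged over 22 to 54, the most with the replicate number as a block. The count of falls was 23 without JQ1 replicate 3 and 23 without vehicle replicate 2. Of the 50 changed ones inside 1 measured gene, 21 changed the same way as that gene, 7 the other way, and in 22 the gene was not called. The microRNA genes named here, other than MIR581, were chosen after their values were seen.

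The mature sequences below come from RefSeq (GRCh38.p14) and are printed with the seed, bases 2 to 8, in capitals. They are those of the bright cluster that rose, of its paralog cluster that was not called, and of single genes with large changes.
hsa-miR-23b-3p: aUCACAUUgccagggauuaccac
hsa-miR-23a-3p: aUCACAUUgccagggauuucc
hsa-miR-27b-3p: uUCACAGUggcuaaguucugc
hsa-miR-27a-3p: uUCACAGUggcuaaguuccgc
hsa-miR-24-3p: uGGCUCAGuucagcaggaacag
hsa-miR-489-3p: gUGACAUCacauauacggcagc
hsa-miR-653-5p: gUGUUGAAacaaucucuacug
hsa-miR-214-3p: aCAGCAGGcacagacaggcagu
hsa-miR-581: uCUUGUGUucucuagaucagu
hsa-miR-25-3p: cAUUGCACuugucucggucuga
The miR-23b and miR-23a sequences share a seed and differ over their common length by A19U, positions counted from the 5′ end of the first named, and the miR-27b and miR-27a sequences share a seed and differ by U19C.

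MIR23B (mature arm at chr9:95085265-95085287, plus strand) measured 10.05, 10.17 and 9.99 on the JQ1 arrays, against 8.82, 8.78 and 8.73 on the vehicle arrays. It was bright in both groups and rose by 1.30 ± 0.095 (limma adjusted p = 5.07e-07). Its neighbour MIR27B (chr9:95085505-95085525) measured 9.28, 9.31 and 9.20 on the JQ1 arrays, against 8.01, 8.06 and 7.63 on the vehicle arrays and rose by 1.36 ± 0.13 (limma adjusted p = 4.89e-06). The third gene of the cluster, MIR24-1, lay below the lower quartile in both groups, so its change is not read. AOPEP, the gene that spans all 3, was not called, at 0.30 ± 0.11 (limma adjusted p = 0.0689). In the paralog cluster on chromosome 19, MIR23A, MIR27A and MIR24-2 were not called, at 0.24 ± 0.23, 0.06 ± 0.19 and 0.20 ± 0.14 (limma adjusted p = 0.483, 0.852 and 0.322).

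MIR489 and MIR653, both inside CALCR on chromosome 7, rose by 1.20 ± 0.12 and 0.999 ± 0.11, both bounds since their vehicle levels lay below the lower quartile, and CALCR itself rose by 2.41 ± 0.15. MIR214, inside DNM3 and its opposite-strand transcript DNM3OS, measured 6.14, 6.12 and 5.84 on the JQ1 arrays, against 4.87, 4.84 and 4.88 on the vehicle arrays and rose by 1.17 ± 0.12, with DNM3 up by 2.22 ± 0.14. MIR25, inside the replication helicase gene MCM7, changed by -0.47 ± 0.11, and MCM7 by -1.19 ± 0.085. A microRNA gene and the gene that spans it overlap in the genome, so these pairs are not separate evidence.

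Runs of neighbouring called genes were counted along the chromosomes, with no level set for how many would arise at the shares of 17.0% falls and 10.8% rises. Among 14881 genes placed in order, runs of at least 5 called genes in the same direction numbered 5 among falls and 1 among rises, and the longest held 6. The run that rose was CALCR, MIR653, MIR489, TFPI2 and BET1 on chromosome 7; BET1, a vesicle fusion gene, rose by 0.43 ± 0.11 (limma adjusted p = 0.0123; 0.053 without JQ1 replicate 2). On chromosome 2 the run TMEM237, CDK15, FZD7, NOP58 and WDR12 fell. CDK15 measured 4.30, 4.75 and 4.32 on the JQ1 arrays, against 6.96, 6.81 and 6.73 on the vehicle arrays; its JQ1 level lay below the lower quartile, so -2.38 ± 0.16 is a bound. The others changed by -1.16, -0.52, -0.50 and -0.70. On chromosome 1 the run held ARTN, at -1.47 ± 0.17, and IPO13, at -0.41 ± 0.093, among others, and on chromosome 20 it held TRMT6, MCM8 and FERMT1, at -0.95, -0.99 and -1.46. A run on chromosome 5 held 6 PCDHB genes and pseudogenes. These are related copies whose signals may not be separate, which was not tested. Another run on chromosome 8 held HAS2 and its antisense gene HAS2-AS1, which overlap. The rising run likewise counts 2 microRNA genes inside CALCR. Of the 6 runs, that on chromosome 20 lost a member when any single MDA-MB-231 array was left out, and that on chromosome 8 in each case but JQ1 replicate 3. The run on chromosome 1 lost a member without vehicle replicate 1, or without either of JQ1 replicates 1 and 3, and that on chromosome 7 without JQ1 replicate 2. Without JQ1 replicate 1 or without vehicle replicate 1, 2 of the 5 falling runs were left whole.

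Promoter windows from RefSeq, 250 bases before to 50 after the first listed start of a gene, were available for 10749 of the tested genes. They were searched on both strands for fixed letters, and matches of different motifs could share bases. The cell cycle genes homology region (CHR), which is known for binding the DREAM and B-MYB complexes that time mitotic genes, was searched as TTTGAA and in the variant TTCGAA. Either form was present in 29.2% of 418 genes that fell by at least 1, against 12.9% of 85 that rose by at least 1, 9.54% of 3251 bright genes that were not called, and 13.2% of all windows.

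The E2F letters TTTNNCGC stood in 13.9% of the genes that fell by at least 1, against 7.06% of those that rose by as much. They stood in 10.2% of bright genes not called and 9.01% of all. The GC box GGGCGG was in 64.4% of these falls and 87.1% of these rises, with 72.5% of bright genes not called and 60.5% of all windows. The ETS letters CCGGAAG were in 12.7% of these falls and 1.18% of these rises, the latter 1 of 85 windows. Among all called falls and rises the ETS shares were 19.7% and 14.6%, with 22.3% of bright genes not called and 15.0% of all. CCAAT was in 43.5% of the falls and 36.5% of the rises of at least 1, with 36.0% of all. The median GC content was 62.5% in windows of genes that fell by at least 1 and 68.7% in those that rose by as much, and its part in these shares was not tested. A match is a description of the letters and not of binding.

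**Figure D4:**
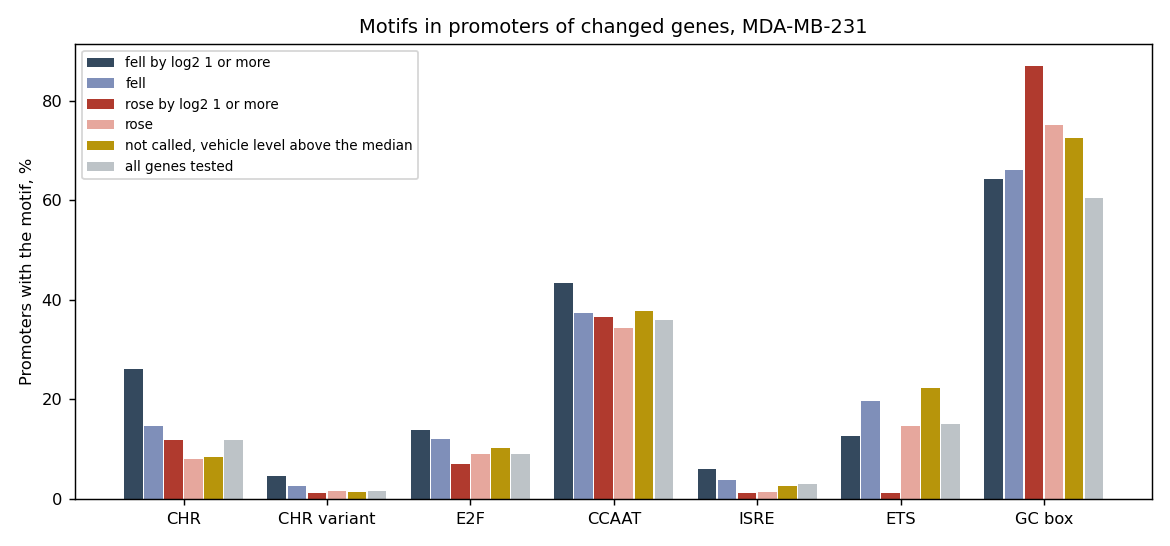
Percent of 300-base promoter windows that hold each motif, for genes that fell or rose by at least 1 under JQ1, all called falls and rises, bright genes not called and all genes with a window. CHR letters are most frequent among genes that fell by at least 1 (26.1% for TTTGAA), and the GC box among genes that rose by at least 1 (87.1%).

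Of 11 genes at ranks 9 to 20 of the falls with a window, 5 held a CHR form, and 1 of 6 such rises. Stretches from 150 bases before to 15 after the annotated start are printed for 4 of the 5 falls, named after the match was seen, with CHR forms on either strand and CCAAT in capitals. These stretches were chosen for holding a CHR form, and IQGAP3, the fifth, is not printed.
NDC80: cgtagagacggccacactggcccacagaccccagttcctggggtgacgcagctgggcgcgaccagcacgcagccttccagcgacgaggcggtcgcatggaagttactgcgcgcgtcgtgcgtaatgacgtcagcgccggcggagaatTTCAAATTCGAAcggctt
KIF14: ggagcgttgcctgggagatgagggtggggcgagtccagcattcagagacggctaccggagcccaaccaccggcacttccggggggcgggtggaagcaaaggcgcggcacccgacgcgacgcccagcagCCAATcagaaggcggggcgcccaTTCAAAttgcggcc
SGO1: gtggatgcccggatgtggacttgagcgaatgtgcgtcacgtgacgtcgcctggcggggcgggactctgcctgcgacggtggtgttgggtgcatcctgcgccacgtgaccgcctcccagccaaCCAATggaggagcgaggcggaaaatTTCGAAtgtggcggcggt
SPAG5: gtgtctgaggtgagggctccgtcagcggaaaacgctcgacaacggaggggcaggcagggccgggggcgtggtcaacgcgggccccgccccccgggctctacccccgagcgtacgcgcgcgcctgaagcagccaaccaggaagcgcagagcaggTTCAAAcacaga
These are chr18:2571407-2571571 (plus strand), chr1:200620737-200620901, chr3:20186192-20186356 and chr17:28599011-28599175 (minus strand), all in GRCh38.p14. KIF14 and SGO1 also hold CCAAT on the printed strand upstream of the CHR form.

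For comparison, the 250 bases before the start are printed for the highest-ranked falls with a window, LAPTM5 and RTKN2, and the highest-ranked rises, EFR3B and ATOH8. All searched motifs found are in capitals.
LAPTM5: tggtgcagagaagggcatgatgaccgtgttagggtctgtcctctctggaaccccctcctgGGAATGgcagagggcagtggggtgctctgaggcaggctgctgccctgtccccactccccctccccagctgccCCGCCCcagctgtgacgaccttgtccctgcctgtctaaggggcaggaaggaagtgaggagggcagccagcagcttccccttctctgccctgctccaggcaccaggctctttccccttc
RTKN2: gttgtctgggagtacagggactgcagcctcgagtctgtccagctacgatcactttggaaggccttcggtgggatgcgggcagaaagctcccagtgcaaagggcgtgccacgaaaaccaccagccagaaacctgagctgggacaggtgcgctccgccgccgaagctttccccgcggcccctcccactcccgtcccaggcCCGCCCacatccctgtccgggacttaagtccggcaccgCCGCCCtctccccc
EFR3B: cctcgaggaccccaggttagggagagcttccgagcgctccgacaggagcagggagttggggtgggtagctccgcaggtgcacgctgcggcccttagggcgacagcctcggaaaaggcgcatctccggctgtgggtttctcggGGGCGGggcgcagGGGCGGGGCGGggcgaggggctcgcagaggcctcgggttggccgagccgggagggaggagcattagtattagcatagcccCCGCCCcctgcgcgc
ATOH8: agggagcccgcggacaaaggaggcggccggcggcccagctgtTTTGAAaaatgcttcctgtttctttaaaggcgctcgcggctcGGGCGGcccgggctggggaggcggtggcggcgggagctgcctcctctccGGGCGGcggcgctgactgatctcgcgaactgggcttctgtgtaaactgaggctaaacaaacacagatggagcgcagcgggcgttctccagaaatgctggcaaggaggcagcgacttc
They lie at chr1:30757775-30758024 and chr10:62268845-62269094 (minus strand) and chr2:25041826-25042075 and chr2:85753741-85753990 (plus strand). All 4 hold GC box letters, and the 1 with CHR letters, ATOH8, is a gene that rose, with the match at -208 from the start.

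The change in MDA-MB-231 was set against that in HCC70 gene by gene as a difference of changes. The difference was called for 2228 genes (15.0%), with the MDA-MB-231 change above that of HCC70 in 886 (5.95%) and below it in 1342 (9.02%). Of the MDA-MB-231 rises 438 (27.3%) had a called difference, and of the falls 1065 (42.1%), of which 1001 were lower than in HCC70. Of the 648 genes (4.35%) that changed by at least 1, 515 (79.5%) had one. These genes were picked by their change in MDA-MB-231, which is one side of the difference, so the shares are descriptions.

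Some changes were near those of HCC70. IPO8 changed by -1.54 in MDA-MB-231 and -1.39 in HCC70, with a difference of -0.15 (limma adjusted p = 0.723), and SMC2 by -1.43 and -1.23 (difference -0.20, adjusted p = 0.29). Others were seen in MDA-MB-231 and went with a called difference. CEMIP changed by -2.29 in MDA-MB-231 and 0.15 in HCC70, a difference of -2.44 (limma adjusted p = 6.37e-06). LIF differed by -2.06 and VEGFA by -1.41 (limma adjusted p = 4.66e-05 and 2.18e-05), with HCC70 changes of -0.05 and -0.70.

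A few genes moved in opposite directions in the lines. SUSD2 changed by 1.76 in MDA-MB-231 and -1.35 in HCC70 (limma adjusted p = 5.92e-06 in HCC70), a difference of 3.10 (adjusted p = 5.01e-07). SMAD7 changed by 0.65 and -0.78, and SKIL by 0.43 and -0.77, with differences of 1.44 and 1.20 (limma adjusted p = 7.77e-05 and 0.00011). PTGS1 changed by 1.03 and -0.34, a difference of 1.37 (limma adjusted p = 2.36e-05). Over all genes 9.02% changed below HCC70 and 5.95% above. Shares of all genes that fell or rose in HCC70 are not given here, so the HCC70 counts below are descriptions only. By list, 11 of 18 tRNA synthetases changed below HCC70 and none above, with 10 falls and no rises in HCC70. Of 46 nuclear pore genes 19 changed below HCC70 and none above, with 12 falls and 10 rises in HCC70. Of 44 splicing factors 16 changed below HCC70 and none above, with 4 falls and 9 rises in HCC70. Of the 32 genes of intraflagellar transport, the BBSome and the transition zone 5 changed above HCC70 and none below.

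**Figure D5:**
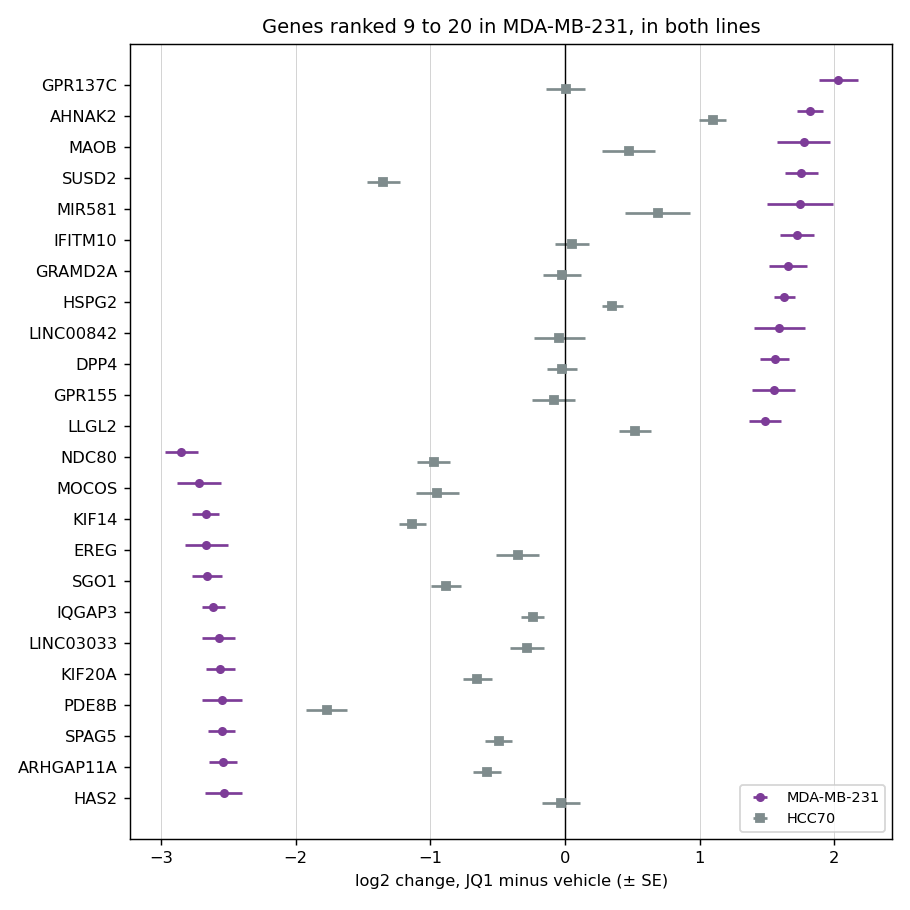
Change under JQ1 (log2, JQ1 minus vehicle, with SE bars; n = 3 arrays each) of the 24 genes ranked 9 to 20 in MDA-MB-231, in MDA-MB-231 and in HCC70. SUSD2 lies at 1.76 in MDA-MB-231 and -1.35 in HCC70, and PDE8B at -2.55 and -1.77.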

How the data were processed

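Total RNA, 150 ng per array, was labelled and hybridised to 12 Human Gene 2.0 ST arrays, per the labels' protocols. The deposited values are on a log2 scale and name RMA, oligo and limma in the submitters' processing notes, with no versions, and neither these nor the labels name a genome build. Of 53617 clusters 16098 carried 1 gene symbol and 37519 none, and 779 genes had more than 1 cluster. From the deposited log2 values a limma fit (3.58.1, R 4.3.3) was computed on 12 arrays with a mean for each of 4 groups, moderated by eBayes, and p-values were adjusted over 14884 genes by the Benjamini-Hochberg method. The test was checked on simulated data. The number of arrays limits the precision.

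Members and gene lists were chosen with earlier results of these data known. Genes named are ranks 9 to 20 in each direction, key members of a described list, up to 3 called members of a list in each direction, members of neighbour runs of at least 5, and the genes whose promoters are printed; exceptions are stated.

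Titles give groups the same replicate numbers 1 to 3. Deviations of JQ1 and vehicle arrays of the same number correlated at 0.155, 0.121 and 0.362, and those of different numbers at -0.25 to 0.121. The weakest same-number value equals the highest of the others. Deviations from a group mean cancel within the group, so positive same-number values bring negative ones elsewhere. The value of 0.362 joins the arrays numbered 3, which had the lowest weights among the MDA-MB-231 arrays. These values cannot decide whether the numbers pair the arrays, and the labels do not say. The values printed are those of the fit without a block, whose SEs and p-values take no account of any pairing. The blocked counts stand in the closing section. Alternatives were a replicate block, MDA-MB-231 arrays alone, trend and robust moderation, a level filter, cluster means, all clusters, quantile normalization, median centring, array weights and leaving out each array.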

Additional observations from a re-analysis of the deposited data

Results flagged for a closer look

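For 23 of the 24 genes ranked 9 to 20, the change under JQ1 differed between MDA-MB-231 and HCC70 in limma's test of that difference (Benjamini-Hochberg over all genes); the exception was MIR581, at an adjusted p of 0.058. The genes were ranked by their MDA-MB-231 change, which is one side of the difference. Over all genes the difference was called for 2228 (15.0%). Among the 648 genes that changed by at least 1 in MDA-MB-231 it was called for 515 (79.5%).

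Among the rises, the MDA-MB-231 change exceeded that in HCC70 by 3.10 for SUSD2, whose HCC70 change was -1.35. It exceeded it by 2.02 for GPR137C, 1.68 for GRAMD2A, 1.67 for IFITM10, 1.63 for LINC00842, 1.63 for GPR155 and 1.58 for DPP4. The difference was 1.30 for MAOB and 1.28 for HSPG2. LLGL2 and AHNAK2, which also rose in HCC70, differed by 0.97 and 0.72.

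Among the falls, the difference was -2.51 for HAS2, with an HCC70 change of -0.03. It was -2.37 for IQGAP3, -2.31 for EREG, -2.29 for LINC03033, -2.06 for SPAG5, -1.96 for ARHGAP11A and -1.91 for KIF20A. NDC80 differed by -1.87, MOCOS and SGO1 by -1.77 each and KIF14 by -1.54. PDE8B, which changed by -1.77 in HCC70, differed by -0.78.

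Signal also changed in transcript clusters that carry no gene symbol and enter no list. Of 37519 such clusters 4073 (10.9%) were called in MDA-MB-231, 1963 higher and 2110 lower under JQ1, in a fit over all clusters. That fit called 7496 of all 53617 clusters, and the main fit called 27.8% of 14884 genes.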

How the results depend on the processing

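The counts of called genes kept within 1.5 times their main values of 4139 for MDA-MB-231 and 2228 for the difference between the lines, except in 2 settings. Over all 53617 clusters 7496 were called, of which 3209 rose and 4287 fell, and the MDA-MB-231 change was above that of HCC70 in 1342. With a change of at least 1 also required, 648, 119 and 529 were left, and 607, 233 and 374 for the difference, by the construction of that rule. With the MDA-MB-231 arrays alone 3245 genes were called, of which 1172 rose and 2073 fell. Leaving out 1 MDA-MB-231 array at a time gave 3355 to 4236 called genes, 1292 to 1586 rises and 2063 to 2650 falls. For the difference it gave 1818 to 2376. No direction reversed in any setting for the genes examined. With the replicate number as a block 4210 genes were called, of which 1665 rose and 2545 fell, and 2171 for the difference. The blocked fit ended the call of SMAD3 and of 10 other genes among the 432 called list, run and microRNA genes examined, and changed no other call among them. Between 0 and 41 of those calls were lost in the other settings, the most in MDA-MB-231 arrays alone and without the 3 arrays numbered 3, a setting chosen after seeing the data. The causes were not tested. Dim signal limits what can be read: 624 microRNA genes and the levels called bounds lay below the lower quartile.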
